A study of Rattus norvegicus with 10 samples.

Results

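Chromosome 2 of the rat, genome build RN4, was described here region by region and in windows of 5 Mb. It was chosen by a measured value, the share of regions called hypomethylated in rats after status epilepticus (SE), which was the highest of the 20 autosomes. The difference between the groups on it is therefore a description and has no test. Its members were all 45384 regions with a row on chromosome 2, of 574544 regions in the whole table of methyl-capture counts. The remainder comprised 525840 regions of the other 19 autosomes, 3140 of chromosome X, and 180 in 2 intervals of chromosome 2, of 2.00 and 0.20 Mb, that are not analysed here.

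DNA methylation in mammals falls mostly on cytosines followed by guanine, and much of a mammalian genome is methylated outside CpG-rich promoters. Methyl-capture pulls down DNA with a methyl-CpG binding protein, which recovers fragments with many methylated CpG sites better than fragments with few. A tag count therefore rises with the methylated DNA captured and does not give the methylation of a single cytosine. DNA methylation is known to take part in the lasting silencing of genes and repeats, and in brain it differs between neurons and glia.

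The rats were male Sprague-Dawley animals of 290 to 320 g. SE rats received electrical pulses in the left lateral nucleus of the amygdala to evoke SE, which was ended with diazepam. Control rats were sham operated, carried the same electrodes and were not stimulated. Tissue with CA3 and dentate gyrus of the left hippocampus was taken 3 months later, and each library came from the DNA of 1 rat. Of 5 rats per group the labels give 1 in each, control rat 2 and SE rat 7, the status discarded, which left control rats 1, 3, 4 and 5 and SE rats 6, 8, 9 and 10. The tissue holds many cell types, so a shift in the mix of cells and a shift of methylation within cells cannot be told apart in any value below. The tissue label could not be checked against marker genes in counts of genomic DNA.

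The table held between 5499370 and 7179519 tags in the 8 libraries used, 7154696 in control rat 2 and 14655629 in SE rat 7. In the counts of chromosome 2 all 28 pairs of the 8 libraries differed by more than sampling noise, with a chi-square per degree of freedom between 1.22 and 1.55. The lowest value belonged to control rat 1 and SE rat 6, a pair across the groups. The table was built from regions that differed between pairs of libraries. An excess over sampling noise in these counts was therefore in part fixed by that choice. The labels name no batch.

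Chromosome 2 is thinly covered by the table. A region of chromosome 2 had a median length of 448 bp and a median of 26 other regions within 50 kb on either side, the measure called local density below, against 458 bp and 32 regions on the other autosomes. Per window of 5 Mb the median was 175 regions per Mb on chromosome 2 and 218 on the other autosomes, and chromosome 2 had the lowest median of the 20 autosomes. The 52 windows ran from 54.6 to 327 regions per Mb, so sparse and dense stretches alternate along the chromosome.

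Chromosome 2 held a smaller share of the tags in SE rats. The share was 7.59% in control rat 1, 7.85% in control rat 3, 8.05% in control rat 4 and 7.94% in control rat 5. It was 7.53% in SE rat 6, 7.59% in SE rat 8, 7.47% in SE rat 9 and 7.34% in SE rat 10. Control rat 1 and SE rat 8 had nearly the same share, while the other 3 control rats lay above all SE rats. The mean log2 share was 0.952-fold in SE relative to control, a log2 difference of -0.070 with a pooled standard deviation (SD) within groups of 0.030 (n = 4 per group). The discarded rats had the lowest shares of their groups, 7.26% in control rat 2 and 6.96% in SE rat 7.

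The lower level did not sit in the called regions alone, but regions of high local density did not share it, as given below. After scaling with edgeR's TMM factors, the summed tags of chromosome 2 had a log2 difference between SE and control of -0.083 (pooled SD 0.039, n = 4 per group). Without any called region the difference was -0.073 (pooled SD 0.037), and over the regions too low in count to be tested it was -0.089 (pooled SD 0.036). The regions called hypomethylated held 2.55% of the tags of chromosome 2.

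Of the 45384 regions, 22130 (48.8%) had enough tags to be tested, with a median of 11.8 tags per library, and 23254 were not tested. With the threshold at p below 0.01, unadjusted, edgeR's quasi-likelihood test called 389 regions (1.76%) hypomethylated in SE, where 1.07% of all tested regions were. Another 74 regions (0.334%) were called hypermethylated, where 0.584% of all tested regions were. These shares chose the chromosome, so they and every count derived from them below are a description. When p was adjusted by Benjamini-Hochberg over the whole table, 0 regions of chromosome 2 stayed below 0.05 in edgeR's test, against 0.00616% of all tested regions, and 1755 had an unadjusted p below 0.05. DESeq2 also gave 0 regions with an adjusted p below 0.05, and 844 with an unadjusted p below 0.05. The autosomes next in order by the share of hypomethylated regions were chromosome 15 with 1.71% and chromosome 11 with 1.65%, and chromosome 12 came last with 0.213%. For hypermethylated regions chromosome 2 had the lowest share of the 20 autosomes.

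Every SE rat lay below every control rat in 552 regions of chromosome 2 (2.49%), against 1.8% of all tested regions. Every SE rat lay above every control rat in 259 regions (1.17%), against 1.82% of all tested regions. Of the 389 hypomethylated regions 188 were of the former kind, and of the 74 hypermethylated regions 44 were of the latter, so that in many called regions single rats of the groups overlapped. Fold changes of all tested regions leaned the same way. In 12854 regions (58.1%) the log2 fold change was below 0, against 49.7% of all tested regions, and the median log2 fold change was -0.079 on chromosome 2 and 0.0024 over all tested regions.

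The called regions were placed differently along the density scale. Hypomethylated regions had a median local density of 12, hypermethylated regions one of 32.5, and tested regions that were not called one of 27. Of the hypomethylated regions 212 (54.5%) had at most 12 neighbours within 50 kb, the class with the lowest density, where 17.3% of the regions not called and 6.76% of the hypermethylated regions fell. Median lengths were 560 bp for hypomethylated, 647 bp for hypermethylated and 570 bp for uncalled regions, and median tags per library were 11.5, 12.6 and 11.8. Median log2 fold changes were -1.09 in hypomethylated and 1.05 in hypermethylated regions.

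The single regions shown are, for each direction, the 5 of smallest p among called regions without overlap of the groups, so that the separation of the groups in them was part of their choice. The first hypomethylated region lay at 232242263 to 232242764. Its normalized count, in tags per 1e6 tags of the library (CPM), was 3.11, 1.41, 2.40 and 2.37 in control rats 1, 3, 4 and 5, and 0.501, 0.862, 0.692 and 0.414 in SE rats 6, 8, 9 and 10. Control rat 3 was the control rat used that lay nearest to the SE rats there. Of the discarded rats, control rat 2 had 0.861 CPM, within the range of the SE rats used, and SE rat 7 had 0. The CPM of the rats used rest on 8 to 18 tags in the control and 3 to 5 tags in the SE libraries. The log2 fold change was -1.91 ± 0.43 (standard error).

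The second, at 130582124 to 130582839, lay among only 4 neighbours within 50 kb and had 4.39 ± 1.06 CPM in control and 1.89 ± 0.665 in SE (SD, n = 4). Its control rats ran from 3.36 to 5.78 and its SE rats from 1.24 to 2.50 CPM. Another region of the same 5 Mb window, at 132880626 to 132881279, had 3.35 ± 0.452 CPM in control and 1.24 ± 0.391 in SE (SD, n = 4). In both regions SE rat 7, one of the discarded rats, had less than any other rat, at 0 and 0.246 CPM, and in the latter control rat 2 had 0.717 CPM and lay below the SE rats used.

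The remaining hypomethylated regions lay at 18826008 to 18826517, with 2.65 ± 0.793 CPM in control and 0.839 ± 0.230 in SE, and at 248591773 to 248592354, with 2.54 ± 0.436 in control and 0.816 ± 0.302 in SE (SD, n = 4). Their log2 fold changes were -1.63 and -1.64. Of these 5 regions, 4 had at most 12 neighbours within 50 kb and the last had 25.

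The hypermethylated region with the smallest p lay at 61922366 to 61922960 among 46 neighbours within 50 kb. Control rats 1, 3, 4 and 5 had 1.56, 1.59, 0.924 and 1.78 CPM, and SE rats 6, 8, 9 and 10 had 2.34, 3.27, 3.63 and 3.86 CPM, and the log2 fold change was 1.14 ± 0.33 (standard error). SE rat 6 was the SE rat nearest to the control rats. The region at 156242664 to 156243598 had 2.02 ± 0.923 CPM in control and 4.22 ± 1.06 in SE (SD, n = 4), and control rat 5, at 3.11, came close to SE rat 8, at 3.27. The region at 181578439 to 181578986 had 1.18 ± 0.769 CPM in control, where control rat 5 held only 2 tags, and 2.87 ± 0.641 in SE (SD, n = 4).

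The hypermethylated regions at 175146959 to 175147629 and at 227448648 to 227449316 had 1.39 ± 0.521 and 1.50 ± 0.498 CPM in control and 3.07 ± 0.509 and 3.18 ± 1.09 in SE (SD, n = 4). SE rat 7 did not share the higher values of the SE rats in these 5 regions. It had 1.97, 1.41, 0.983, 0.553 and 0.123 CPM in the order named, below the lowest of the SE rats used in each, while control rat 2 had 2.01, 2.44, 1.58, 3.01 and 2.44 CPM. Log2 fold changes of the 4 regions after the first ran from 1.01 to 1.29.

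**Figure D1:**
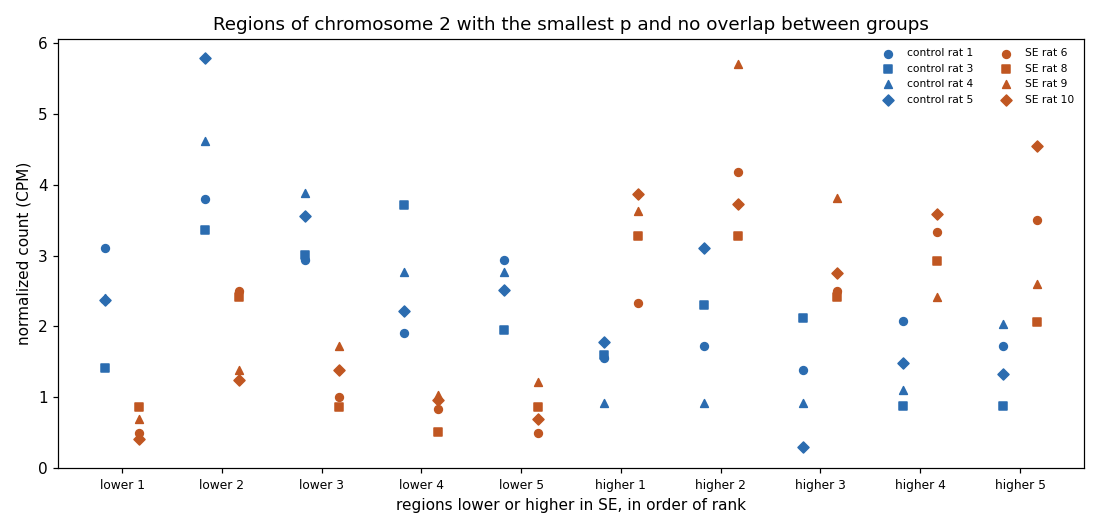
Normalized counts (CPM, vertical axis from 0) of the 5 hypomethylated ("lower") and 5 hypermethylated ("higher") regions of chromosome 2, in order of rank on the horizontal axis, with 1 point per rat, blue for control and orange for SE. The groups do not overlap because the regions were chosen so, and values lie between 0.297 and 5.78 CPM.

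A gene could be named for 1 region. The region at 217740941 to 217741455, which the study lists within an intron of Rwdd3, lay among 34 neighbours within 50 kb. Rwdd3 encodes RSUME, a protein with an RWD domain that enhances the attachment of SUMO to other proteins. Control rats 1, 3, 4 and 5 had 1.56, 1.41, 1.48 and 1.63 CPM there, and SE rats 6, 8, 9 and 10 had 1.84, 3.45, 2.77 and 2.62 CPM. All SE rats lay above all control rats, SE rat 6 by the smallest margin, and the control rats were close together. The log2 fold change was 0.79 ± 0.34 (standard error), and the region was not called at the threshold. The study listed it as increased after amygdala stimulation, from these same libraries, and after pilocarpine injection, from other rats. Its direction in the libraries used here is therefore no independent evidence.

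Mapped in windows of 5 Mb, most of chromosome 2 was lower in SE rats. The tags of all regions in a window were summed for each rat and expressed as log2 CPM. The mean was lower in SE in 45 of the 52 windows (86.5%), and in 58.1% of the 470 windows of the other autosomes. The log2 difference ran from -0.39 to 0.063 with a median of -0.10, against a median of -0.030 on the other autosomes. A window held at least 1589 tags per rat, a counting error of at most 0.036 on the log2 scale, and the median SD between rats of a group was 0.049.

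Every SE rat lay below every control rat in 12 windows (23.1%), which is close to the 23.4% of all 522 autosomal windows. Every SE rat lay above every control rat in 1 window, where 16.3% of all windows were of that kind. The size of the difference exceeded the pooled SD within groups in 40 windows and 2 times that SD in 26 windows. These 2 counts were not taken on the other autosomes. All windows share the same libraries, so the counts are not separate observations. Lower SE means took a larger share of windows than on the other autosomes. Windows in which all SE rats lay below all control rats took about the same share in this setting. Neither was tested, since the contrast chose the chromosome. With 10 Mb windows the latter share was 30.8% on chromosome 2 and 20.4% over all windows. With tested regions only it was 19.2% and 14.4%, and with 2 Mb windows 20.3% and 20.8%.

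**Figure D2:**
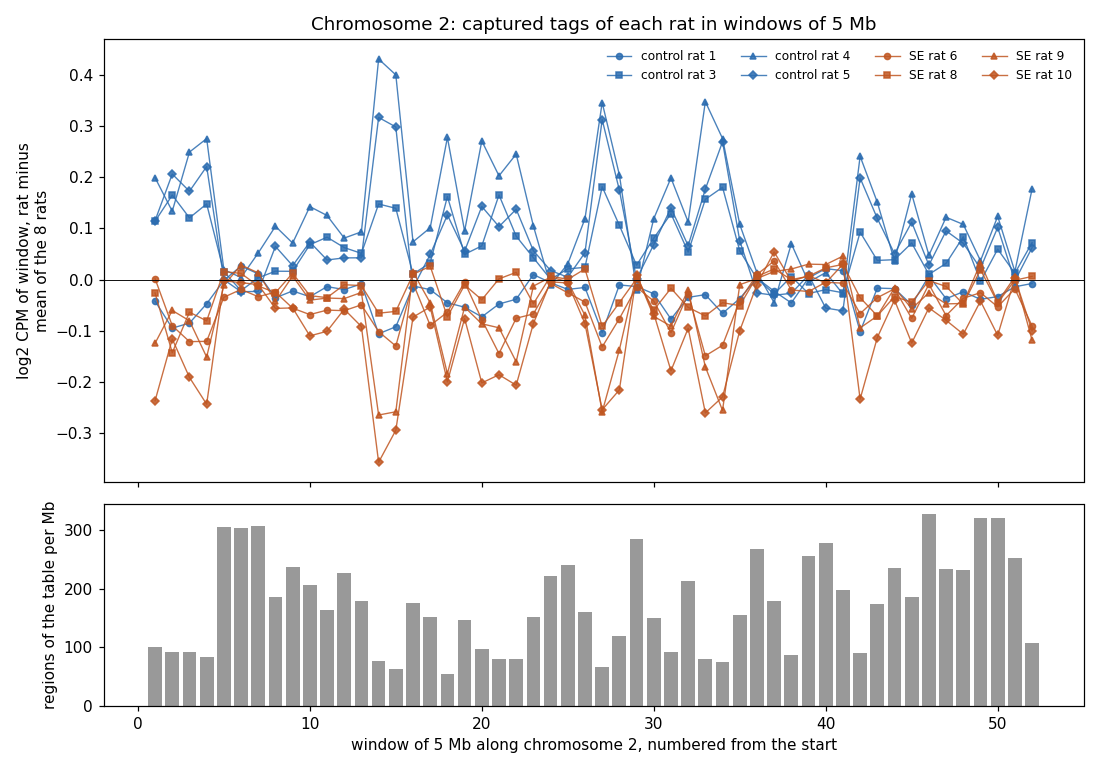
The upper panel plots the log2 CPM of each rat, less the mean of the 8 rats, in the 52 windows of 5 Mb along chromosome 2, with blue lines for control and orange lines for SE rats, and the lower panel plots the regions of the table per Mb as bars. The rats fan out in windows with few regions, up to a log2 difference between the groups of -0.39, and run together in dense windows, and control rat 1 runs among the SE rats.

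The windows with the lowest values in SE were also sparse. Window 14, from 65 to 70 Mb, of which 3 Mb were analysed, had 306.8, 365.8, 445.2 and 411.3 CPM in control rats 1, 3, 4 and 5, and 307.7, 315.5, 274.9 and 257.8 in SE rats 6, 8, 9 and 10. Control rat 1 lay below 2 of the SE rats there. The SE mean was 0.761-fold that of control, a log2 difference of -0.39 with a standard error of 0.14, at 77.3 regions per Mb. Window 15, from 70 to 75 Mb, had a log2 difference of -0.37 (standard error 0.12) at 63.6 regions per Mb, and window 27, from 130 to 135 Mb, one of -0.37 (standard error 0.11) at 66.2 regions per Mb.

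Windows 34 and 33, from 160 to 170 Mb, followed with log2 differences of -0.33 and -0.33. In window 33 the control rats had 585.6, 666.4, 760.5 and 675.7 CPM and the SE rats 539, 569, 531 and 498.9. This was the only one of the 5 lowest windows in which the groups did not overlap, and control rat 1 and SE rat 8 were nearest to each other. Windows 14, 15 and 27 also had the largest spread between rats of a group on chromosome 2, with pooled SDs of 0.19, 0.17 and 0.16 on the log2 scale.

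Values were higher in SE in 7 windows, and 5 of these lay among the 6 windows from 175 to 205 Mb, a stretch that was picked after its values were seen. It held 18 hypomethylated (0.569%) and 24 hypermethylated regions (0.758%) among 3166 tested ones. The rest of the chromosome held 371 (1.96%) and 50 (0.264%) among 18964, and over all tested regions the shares were 1.07% and 0.584%. Window 37, from 180 to 185 Mb, had 1520.6, 1515, 1497.2 and 1512.3 CPM in the control rats and 1584, 1567.2, 1561.8 and 1603.8 in the SE rats. The rats of each group were close together and the groups did not overlap, with a log2 difference of 0.063 and a standard error of 0.010.

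Within window 37 the direction was not uniform. Its first 2 Mb, from 180 to 182 Mb, had log2 differences of 0.15 and 0.13 per Mb at 252 and 287 regions per Mb, with all SE rats above all control rats. Its last 2 Mb, from 183 to 185 Mb, had -0.14 and -0.18 at 49 and 55 regions per Mb. The Mb between them, from 182 to 183 Mb, had 0.00022 at 253 regions per Mb, with the groups overlapping, so 1 of the 3 dense Mb was not higher in SE. Relative to the mean of the 8 rats, control rat 2 stood at 0.23 and SE rat 7 at -0.35 on the log2 scale in window 37, the opposite order.

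The other windows with the highest values in SE were windows 41, 40, 39 and 6, with log2 differences of 0.049, 0.020, 0.010 and 0.0075. In each of them control and SE rats overlapped. The smallest spread was found in windows 24, 51 and 36, with pooled SDs of 0.010, 0.012 and 0.013. Window 24, from 115 to 120 Mb, had between 1782 and 1817.9 CPM in the control rats and between 1786.3 and 1804.2 in the SE rats. It was the 1 window without a hypomethylated region, and its highest and lowest rat differed by 0.029 on the log2 scale.

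The difference of a window followed its density of regions. Over the 52 windows the log2 difference rose by 0.13 for each doubling of the regions per Mb, with a correlation of 0.82, and the line through the windows accounted for 67.4% of their variation. On the 470 windows of the other autosomes the slope was 0.14 and the share 63.5%. The windows share the same 8 libraries and denser windows hold more tags, so these figures describe the libraries. With the mean local density of a window's regions in place of its regions per Mb the share was 77.9% on chromosome 2.

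The 17 sparsest windows, with 54.6 to 107 regions per Mb, had a median log2 difference of -0.22 and a median SD within groups of 0.11, and all 17 were lower in SE. The 17 windows of middle density, with 120 to 212 regions per Mb, had medians of -0.099 and 0.049, and 15 were lower. The 18 densest windows, with 222 to 327 regions per Mb, had medians of -0.017 and 0.023, and 13 were lower. Hypomethylated regions made up 4.86% of the tested regions in the sparsest and 0.878% in the densest of these groups of windows.

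Both the difference and the spread thus grew as density fell. The correlation of the log2 SD within groups with log2 density was -0.83 over the windows of chromosome 2 and -0.66 on the other autosomes. The correlation of the SD with the size of the difference was 0.96. Control rats spread more than SE rats in 46 of the 52 windows, with median SDs of 0.061 and 0.035. This count and these medians were not taken on the other autosomes, so nothing particular to chromosome 2 is read from them.

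**Figure D3:**
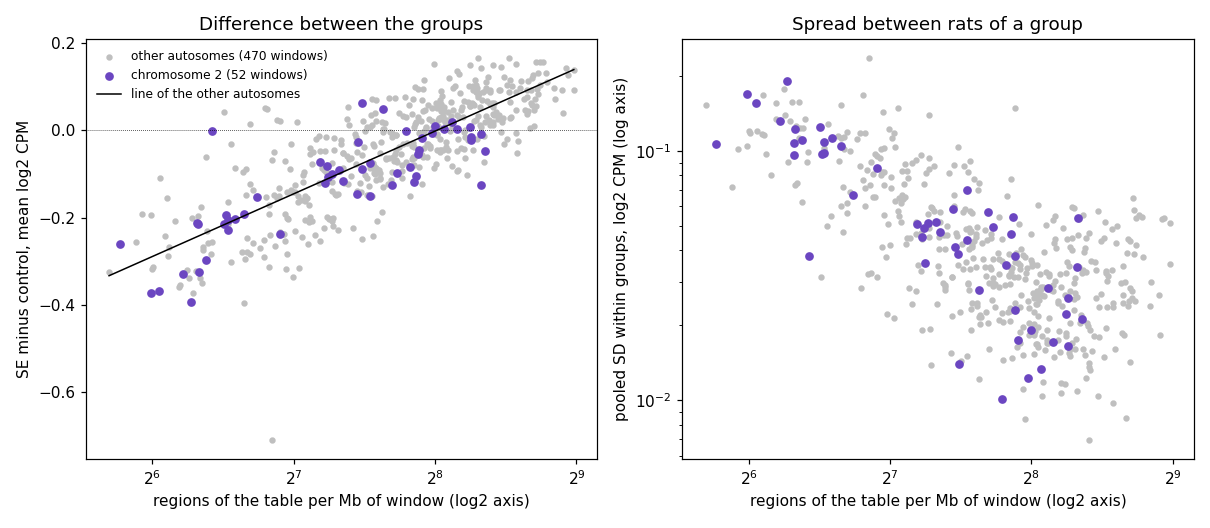
The log2 difference between SE and control (left panel) and the pooled SD within groups (right panel, log axis) of each 5 Mb window are plotted against the regions per Mb on a log2 axis, with purple points for the 52 windows of chromosome 2 and grey points for the 470 windows of the other autosomes. Chromosome 2 lies along the line of the other autosomes, with slopes of 0.13 and 0.14, and its spread falls as density rises.

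The median window of chromosome 2 lay close to the line of the other autosomes. The median distance of its windows from that line was -0.0099 on the log2 scale, 31 of 52 windows lay below it, and 47 of 52 lay within 0.1 of it. From a line through the windows of all autosomes chromosome 2 had rank 10 of 20 by its median distance, whereas by the median window difference itself it had the lowest value of the 20. The description of chromosome 2 as the most hypomethylated autosome holds for the share of calls and for the median window. It does not hold for the median distance of its windows from this line. In summed tags by class of local density, given below, chromosome 2 had a lower difference than the other autosomes in every class.

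The windows farthest from the line were few. Window 50, from 245 to 250 Mb, lay farthest below it, by -0.17, although it was dense, with 321 regions per Mb. Its CPM were 2490.4, 2655.5, 2776.3 and 2735 in the control rats and 2456.2, 2469.5, 2472.7 and 2362.9 in the SE rats. Control rat 1 was close to the SE rats and the groups did not overlap, with a log2 difference of -0.13 (standard error 0.038).

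Window 50 held 15 hypomethylated (2.02%) and 0 hypermethylated regions among 741 tested ones. The shares were 1.76% and 0.334% on chromosome 2, and 1.07% and 0.584% over all tested regions. In each of the 5 Mb of window 50 the SE mean was lower, by -0.044 to -0.23 on the log2 scale. The difference was smallest in the Mb that had 515 regions. The discarded rats did not share the direction, with control rat 2 at -0.18 and SE rat 7 at 0.12 relative to the mean of the 8 rats. Window 48, from 235 to 240 Mb, also lay below the line, by -0.096, and its 3 Mb from 237 to 240 Mb each had all SE rats below all control rats, with log2 differences between -0.21 and -0.31. Window 14 lay -0.14 from the line.

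Window 38, from 185 to 190 Mb, lay farthest above the line, by 0.23. It had 86 regions per Mb, and the 7 other windows with 80 to 95 regions per Mb had log2 differences from -0.33 to -0.20. Its CPM were 744.9, 772.1, 807.1 and 754.7 in the control rats and 758.1, 768.8, 779.9 and 767.1 in the SE rats, and the groups overlapped fully, with a log2 difference of -0.0017. Nearly 1 in 2 of its regions lay in its last Mb, from 189 to 190 Mb, which held 206 of its 430 regions. Windows 37 and 41 lay 0.14 and 0.10 above the line.

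The called regions of either kind left stretches free of the other. Hypermethylated regions were absent from 121462677 to 142970837, their widest gap on the chromosome, in which 44 of 1705 tested regions (2.58%) were hypomethylated over 21.5 Mb, where 1.76% of all tested regions of chromosome 2 and 1.07% of the table were. Hypomethylated regions were absent over at most 6.05 Mb, from 173104323 to 179152088, in which 6 of 678 tested regions (0.885%) were hypermethylated, where 0.334% of chromosome 2 and 0.584% of the table were. Hypermethylated regions were lacking in 22 of the 52 windows, and in 6 windows they outnumbered hypomethylated regions.

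The rats differed in how their profile followed density, and 1 control rat lay with the SE rats. The slope of a rat's window values, less the mean of the 8 rats, on log2 regions per Mb was 0.032 in control rat 1, -0.066 in control rat 3, -0.13 in control rat 4 and -0.095 in control rat 5. It was 0.041 in SE rat 6, 0.026 in SE rat 8, 0.088 in SE rat 9 and 0.10 in SE rat 10. The same slopes over the other autosomes were 0.022, -0.064, -0.14 and -0.10 in the control and 0.057, 0.030, 0.088 and 0.11 in the SE rats. Each of these 8 rats had about the same slope on chromosome 2 as elsewhere. Control rat 1 lay above SE rat 8 on chromosome 2 and below it on the other autosomes.

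A single axis held 94.8% of the variation of the window values between rats, and the next held 1.60%. Scores on it were 0.29, -0.59, -1.23 and -0.87 in control rats 1, 3, 4 and 5 and 0.46, 0.25, 0.69 and 1.00 in SE rats 6, 8, 9 and 10. The weights of the windows on this axis had a correlation of 0.83 with log2 density. Control rat 1 lay below the other 3 control rats in 42 of 52 windows and at or below the highest SE rat in 40, control rat 4 was the highest of the 8 rats in 43 windows, and SE rat 10 was the lowest in 31.

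Without control rat 1 the count of windows with all SE rats below all control rats rose from 12 to 37 of 52 (71.2%), and that share over all autosomal windows rose to 48.1%. Without SE rat 8 it was 27 of 52 (51.9%), and 37.9% over all windows. Both counts rest on which single rat is left out. Apart from scaling, leaving out a rat can only keep or add such windows. The median window difference was -0.12 without control rat 1 and -0.11 without SE rat 8.

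In most windows the discarded pair, 1 rat against 1 rat, went the same way with a larger size. SE rat 7, the library with the most tags, lay below control rat 2 in 42 of 52 windows, by a median of -0.34 on the log2 scale. The difference between these 2 rats rose by 0.58 for each doubling of the regions per Mb, with a correlation with log2 density of 0.87. Their own slopes were not the same on chromosome 2 as elsewhere. Relative to the mean of all 10 libraries, control rat 2 had -0.039 on chromosome 2 and 0.047 on the other autosomes. SE rat 7 had 0.54 and 0.37. With all 10 libraries 48 of 52 windows were lower in SE and in 2 windows (3.85%) every SE rat lay below every control rat, against 4.41% of all windows. The slope on density was then 0.22, and 65 regions were called hypomethylated and 45 hypermethylated among 20874 tested ones.

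When regions were compared within classes of equal local density, chromosome 2 and the other autosomes differed least in the sparsest class. Regions with 0 to 12 neighbours within 50 kb had a log2 difference of their summed tags of -0.24 on chromosome 2 (SD 0.11, n = 4 per group) and -0.23 on the other autosomes (SD 0.092). This class held 17.9% of the tested regions of chromosome 2 and 9.64% of those of the other autosomes. With 20 to 24 neighbours the values were -0.074 and -0.052. In the class with 52 to 81 neighbours they were 0.028 and 0.097, so that the dense regions of the other autosomes were higher in SE while those of chromosome 2 stayed near 0.

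In every one of the 10 classes chromosome 2 had the lower value, by -0.013 in the sparsest and by -0.068 in the densest. The share of hypomethylated regions was 5.34% on chromosome 2 and 4.20% on the other autosomes in the sparsest class. On chromosome 2 it fell to 0.238% with 34 to 37 neighbours and was between 0.314% and 0.513% in the 4 denser classes. It was below that of the other autosomes in 2 classes, with 0.737% against 0.765% at 25 to 29 neighbours and 0.238% against 0.374% at 34 to 37. In the densest class it was 0.452% against 0.136%, from 3 such regions among 663 tested ones.

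**Figure D4:**
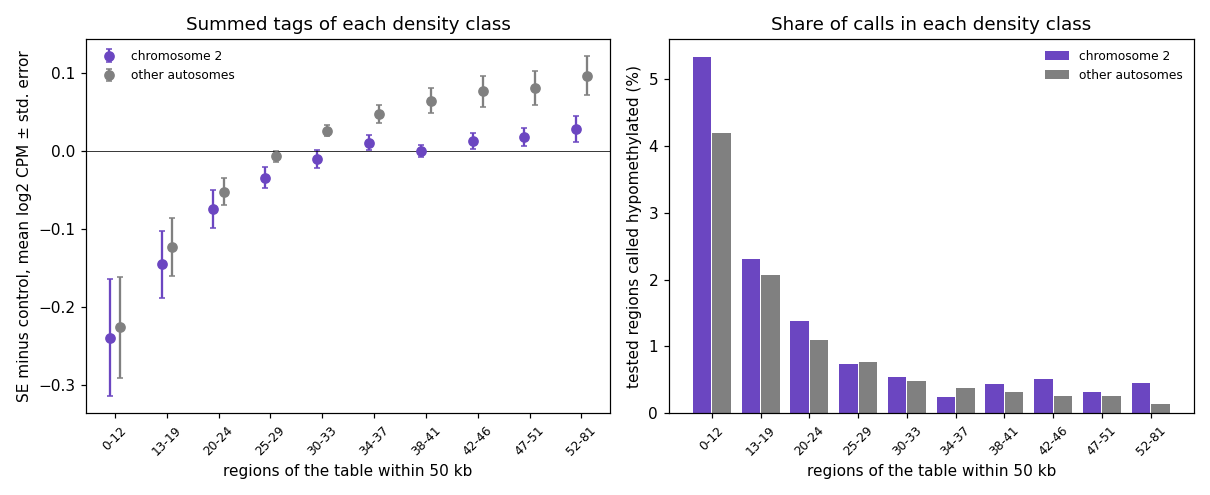
The left panel plots the log2 difference between SE and control of the summed tags (points, with bars of 1 standard error from the spread between rats, n = 4 per group) and the right panel the percentage of tested regions called hypomethylated (bars from 0), for 10 classes of regions by the number of other regions within 50 kb, purple for chromosome 2 and grey for the other autosomes. Both chromosome sets climb from about -0.24 and -0.23 in the sparsest class, and chromosome 2 levels off near 0 while the others reach 0.097.

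The tags of chromosome 2 were then set beside the amount that a rat's density profile on the other autosomes gives for regions of these densities. Relative to the mean of the 8 rats, chromosome 2 had 0.984, 1.03, 1.07 and 1.04 in control rats 1, 3, 4 and 5, and 0.973, 0.988, 0.975 and 0.947 in SE rats 6, 8, 9 and 10. The profile gave 0.989, 1.02, 1.04 and 1.02 in the control rats, and 0.980, 0.994, 0.984 and 0.971 in the SE rats. In log2 terms it accounted for -0.051 of the difference of -0.083, or 61.4%, and -0.032 was left.

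The same was done for the calls. With the shares of calls on the other autosomes in each of the 10 density classes, 320.7 hypomethylated and 110.4 hypermethylated regions were obtained for the tested regions of chromosome 2. The 389 and 74 found were 1.21 and 0.67 times these numbers. With a single share for all densities the numbers would have been 217.5 and 133.5.

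The counts computed with density classes were nearer to those found. What remained between them is in part fixed by the choice of chromosome 2 for its share of hypomethylated regions, and nothing is read from it. Offsets that remove each library's trend on local density before the test gave 181 hypomethylated (0.818%) and 103 hypermethylated regions (0.465%). Chromosome 2 then moved from the first to the fourth rank of the autosomes by the share of hypomethylated regions. The mean trend differed between the groups, so these offsets also take out part of the difference between them. The rank of chromosome 2 was between 1 and 4 under all alternatives except the filter of 10 counts in every library, where it was 9.

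**Figure D5:**
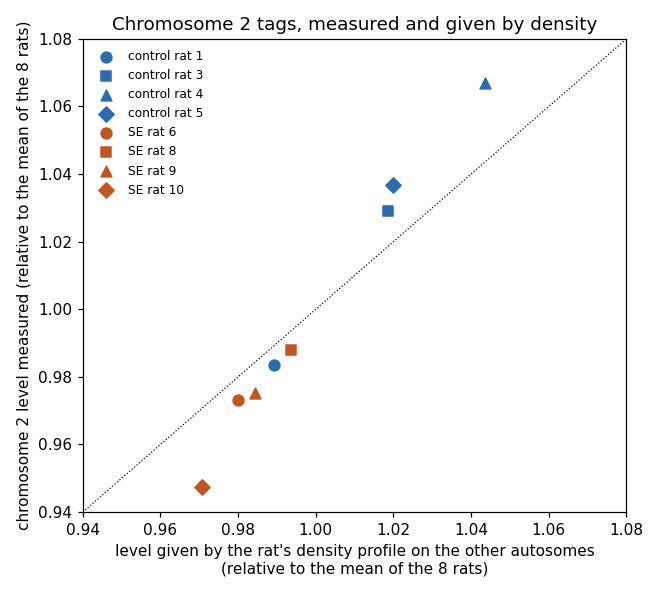
For each of the 8 rats the level of chromosome 2 (vertical axis, relative to the mean of the 8 rats) is plotted against the level that the rat's density profile on the other autosomes gives (horizontal axis, same scale), with blue for control, orange for SE and the line of equality dotted. The order along both axes is nearly the same, control rat 1 lies among the SE rats, and the measured levels, from 0.947 to 1.07, span more than those from density, 0.971 to 1.04.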

How the data were processed

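Genomic DNA of rat hippocampus was captured with a methyl-CpG binding protein and sequenced, with 1 library per rat. The deposited table gives the authors' counts of tags, not normalized. The authors aligned the reads to RN4 with BWA, ran MACS on every pair of libraries, joined the differing regions with BEDTools, and counted the tags per region after duplicates were dropped. The density of regions is therefore that of this table and not of CpG sites. Depth was 5499370 to 7179519 tags in the 8 libraries used, and 0 columns were left unmatched.

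Regions whose summed count was below the 50th percentile (fewer than 70 tags) were removed, and all 291987 regions left were fitted in edgeR (version 4.0.16, under R 4.3.3) by the quasi-likelihood method with TMM factors, two-sided, with group as the only term. Calls had an unadjusted p below 0.01, the threshold of the study's methods. The standard error of a log2 fold change is its size over the root of F. Windows of 5 Mb take regions by their midpoint, need at least 20 regions, and use CPM relative to the library total times its TMM factor. Local density counts table regions within 50 kb, the regions of the intervals left out included. The fit was tested on simulated data.

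The regions named were the Rwdd3 intron region that the study lists and, for each direction, the 5 of smallest p among called regions without overlap of the groups. The windows named were the 5 lowest and 5 highest by difference, the 3 with the largest and the 3 with the smallest spread, and the 3 farthest from the density line on each side. Window 1, the windows from 175 to 205 Mb and single Mb were picked after their values were seen. Values of the discarded rats use the TMM factors of the fit with all 10 libraries. The chromosome, the named lists and the comparisons were chosen with earlier results of these data known.

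Alternatives were edgeR's exact test, DESeq2 (version 1.42.0), library totals, upper quartile, loess and density offsets (limma version 3.58.1), no region filter, 10 counts in every library, each rat left out, all 10 libraries, other window sizes, tested regions only and other density measures. Leaving out the first window was chosen after the data were seen. Other genes and sequences, which need an RN4 annotation, are not given.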

Additional observations from a re-analysis of the deposited data

Results flagged for a closer look

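In 2 windows a rat stood apart from its group. In window 50 the normalized count of SE rat 10 was 2363 CPM, below the other 3 SE rats, which lay between 2456.2 and 2472.7. In window 48 SE rat 10 had 1624 CPM, below the other 3 at 1691 to 1704.5. In total 64 groups of 4 rats were examined, over the named regions and windows and the measures per rat, and 2 were marked, where chance marks about 1 in 20.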

How the results depend on the processing

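Of 135 recomputed values 119 stayed within 1.5 times the reported count or within 1 SD of the reported value, and 16 moved further. Counts and percentages could not change sign, and of the other values 0 did. Library totals and upper quartile only rescale whole libraries, so the density slope and the offset could not move under them. The hypomethylated and hypermethylated regions numbered 114 and 15 with DESeq2, 597 and 147 without a region filter, 76 and 8 with at least 10 counts in every library, and 65 and 45 with all 10 libraries. The filter of 10 counts left 4567 regions to test. With density offsets, which also take out part of the difference between the groups, 181 regions were hypomethylated. The cause of the moves was not tested. The median offset from the density line was -0.024 with 2 Mb windows. With all 10 libraries 3.85% of windows had all SE rats lower, the density slope was 0.22, and density gave 58.0 hypomethylated calls. Without a filter density gave 502 such calls.

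With each rat left out in turn the hypomethylated regions ran from 267 (without SE rat 10) to 462 (without control rat 1), the hypermethylated ones from 60 to 83, and the calls given by density from 234.2 to 405.2. The windows with all SE rats lower ran from 23.1% to 71.2%. Apart from scaling, leaving out a rat can only keep or add such windows, so the lower end is no measure of stability. The windows with a lower SE mean ran from 78.8% to 84.6%, and the median window difference from -0.12 to -0.085. The slope ran from 0.11 to 0.16, the offset from -0.018 to -0.0074, and the log2 share of tags from -0.087 to -0.058. Without control rat 1, 2 regions of chromosome 2 had an adjusted p below 0.05 in edgeR's test.

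No paired analysis was possible because no rat number occurs in both groups. Most tested regions rest on about 12 tags per library, so single regions are limited by counting, and sums over windows by the spread between 4 rats per group.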

Other observations

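The first window of chromosome 2, from 0 to 5 Mb, held 6.75% of the tags of the chromosome in 502 regions, and 5 of these regions held 36.3% of its tags. The largest, from 1281817 to 1293269, was 11452 bp long and had a mean of 3206 tags per library, 10.3% of the window. The median region of the window had 9.44 tags per library, against 8.63 over all regions of chromosome 2. High counts were not confined to these 5 regions' share alone, as tags were concentrated in the first 2 Mb. The Mb from 0 to 1 Mb had 880.9 to 1156.2 CPM in 159 regions. From 1 to 2 Mb it was 3221.2 to 4384.9 CPM in 101 regions. Each Mb from 2 to 5 Mb had between 84.1 and 141.7 CPM in 74 to 89 regions. The window had 5018.7, 5592.7, 5932.1 and 5596.8 CPM in control rats 1, 3, 4 and 5 and 5173.8, 5074.7, 4740.3 and 4385.2 in SE rats 6, 8, 9 and 10, so that control rat 1 lay below SE rats 6 and 8. Relative to the mean of the 8 rats, SE rat 7 stood at -2.14 and control rat 2 at -0.43 there on the log2 scale, for each its lowest value on the chromosome. The window held 16 hypomethylated (5.97%) and 0 hypermethylated regions among 268 tested ones. The shares were 1.76% and 0.334% on chromosome 2, and 1.07% and 0.584% over all tested regions. Without the first window the median difference of the remaining 51 windows was -0.10 and the density slope 0.13.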
